A study of Saccharomyces cerevisiae with 11 samples.

Results

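Ribosome biogenesis genes encode the proteins that transcribe, cut, modify and fold ribosomal RNA and assemble the ribosomal subunits around it, and 50 of them were followed on 11 arrays of the budding yeast Saccharomyces cerevisiae. They were chosen as a named list, with 4 subunits of RNA polymerase I and III, 6 proteins of small nucleolar ribonucleoproteins (snoRNPs), 17 of the small subunit processome, 3 of late 40S assembly and export, 16 of 60S assembly and 4 that serve both subunits. The arrays hold 5656 genes named by at least 1 probe set that matches no other gene, and all 50 were among them. Each gene was followed through its brightest probe set, and RPA190 (7 probe sets), UTP22 (6) and NOP58 (4) were the members with more than 1. All 50 were tested, and on every array all 50 exceeded 25.5, a background level set at the 95th percentile of 19 control probe sets. Their lowest reading was 47.1, for NOP7 in treated fks1 cells.

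Expression was measured on Affymetrix YG-S98 arrays, on which short oligonucleotides report each transcript. Wild-type cells were strain BY4741, and the mutant, fks1 strain 5251, is mutated in FKS1, which encodes the chief catalytic part of cell wall glucan synthase; the labels do not describe its allele. Glucosamine, an amino sugar, can be converted by cells into the precursor of chitin, a cell wall polymer. Rich medium with glucose (YPD) was used throughout, and cells were harvested at an optical density between 1.6 and 1.8. The 5 groups were untreated wild type (3 arrays), wild type with 15 mM glucosamine for the last 2 h (3 arrays), wild type with 15 mM glucosamine overnight and again after dilution, called continuous here (3 arrays), untreated fks1 (1 array) and fks1 given 15 mM glucosamine after dilution (1 array, titled 2 h). The wild-type 2 h cultures had first grown for 2 or 3 h, and the fks1 culture for 2 h. The labels do not say whether replicate numbers mark separate cultures, so a p-value here measures the spread between arrays, which may be technical.

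In growing yeast the nucleolus makes ribosomal RNA with RNA polymerase I, while RNA polymerase III supplies the remaining ribosomal RNA and the transfer RNAs. The long precursor is bound by snoRNPs and by the small subunit processome, is cut apart, and then matures as separate precursors of the small and the large subunit. The genes of these factors are known to be expressed together, in step with growth, nutrients and stress, under regulators that include Sfp1, Sch9 and the repressors Dot6, Tod6 and Stb3.

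Signals were scaled by the submitters to a common level, with 2% trimmed means of 500.4 to 500.5. Correlations between the log2 signals of any pair of arrays ran from 0.939 to 0.984, and none of the arrays repeated another. FKS1 itself read 4495.7 to 8068.1 in wild type and 39.7 and 21.6 on the fks1 arrays, whose titles name that gene. STE2, the receptor that cells of mating type a carry, read 841.8 to 1732.1. The ratio of the 3′ to the 5′ probe set of SPT15, a measure of how complete the labelled RNA was, was 3.38 to 3.53 on the untreated arrays, 3.22 to 3.86 at 2 h, 2.46 to 2.89 on the continuous arrays, and 2.99 and 2.88 in fks1. The ratio was lower on the continuous and fks1 arrays than on the other 6, and its part in the differences below was not tested.

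In the ribosome biogenesis genes, arrays of the same treatment differed by as much as the treatments did. On several arrays most of these genes read high or low together, while on 2 h arrays 2 and 3 they were split. Relative to the untreated wild-type mean, their median log2 level was -0.16, 0.07 and 0.05 on untreated arrays 1, 2 and 3, with 6, 36 and 31 of the 50 above 0. It was -0.62, -0.07 and 0.04 on the 2 h arrays, with 0, 21 and 27 genes above 0. On the continuous arrays it was 0.42, 0.29 and -0.19, with 50, 47 and 10 genes above 0. Untreated array 1, 2 h array 1 and continuous array 3 were thus the low arrays of their groups. The single fks1 arrays lay at -0.38 untreated, with 4 genes above 0, and -0.86 after glucosamine, with 0 above. Over all probe sets the same median stayed between -0.05 and 0.12 on every array. Bulk signals cannot tell fewer cells making these transcripts from less of them per cell.

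**Figure D1:**
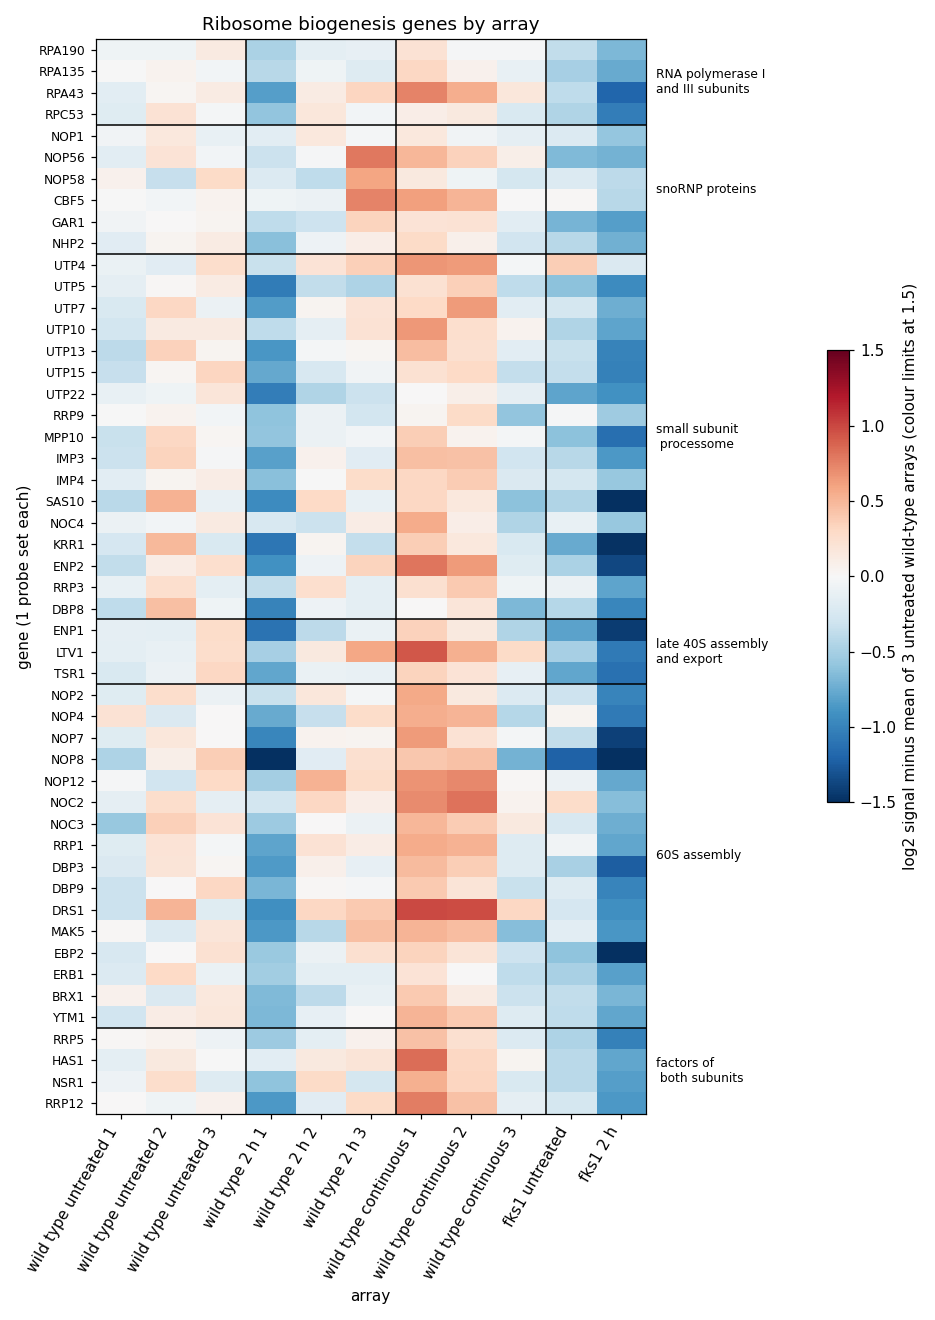
Log2 signal of each of the 50 genes (rows, grouped by role) on each of the 11 arrays (columns), relative to the gene's mean on the 3 untreated wild-type arrays. The column of 2 h array 1 and that of treated fks1 are low nearly throughout, the columns of continuous arrays 1 and 2 are high, and continuous array 3 is low beside them.

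The low array was shared by nearly all members. On 2 h array 1 stood the lowest 2 h reading of 47 of the 50 genes, where 33.5% of all probe sets had their lowest 2 h reading. Continuous array 3 was the lowest of its group for 49 genes (28.9% of all probe sets), and untreated array 1 for 34 (35.3%). Continuous array 1 was the highest of its group for 37 genes (20.4%), and 2 h array 3 for 29 (36.1%). The median of the 50 genes had an SD of 0.29 (log2) between arrays of a group.

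General stress genes, 34 targets and markers of the environmental stress response, are the set that classically moves against ribosome biogenesis, and their medians are given beside those of the 50 genes. They were 0.03, 0.42 and -0.47 on the untreated arrays, 0.12, -0.26 and -0.68 at 2 h, and -0.88, -1.08 and 0.25 on the continuous arrays. In fks1 they were 0.13 untreated and 0.46 treated. On treated fks1, where the ribosome biogenesis genes were low, 27 of 34 stress genes were above 0 (79.4%, beside 55.4% of all probe sets). Continuous array 3, also low in the biogenesis genes, had 21 above 0, a share of 61.8% that was near the 57.0% of all probe sets. Continuous arrays 1 and 2, where the biogenesis genes were high, had 3 and 1 stress genes above 0 (45.0% and 52.3% of all probe sets). The medians of both sets were above 0 on untreated array 2 and below 0 on 2 h array 2. For 2 h against untreated both sets were lower, with 31 of 34 stress genes negative (median -0.24) and 42 of the 50 genes (median -0.22). For continuous against untreated 28 of 34 stress genes were negative (median -0.52), while 43 of the 50 genes were positive (median 0.16). The part of the stress genes in the readings of the 50 genes was not tested. The 80 genes of the ribosomal proteins, the structural parts of the ribosome, had medians between -0.23 and 0.15 on all 11 arrays, and -0.02 on 2 h array 1, where the biogenesis factors were lowest in wild type.

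**Figure D2:**
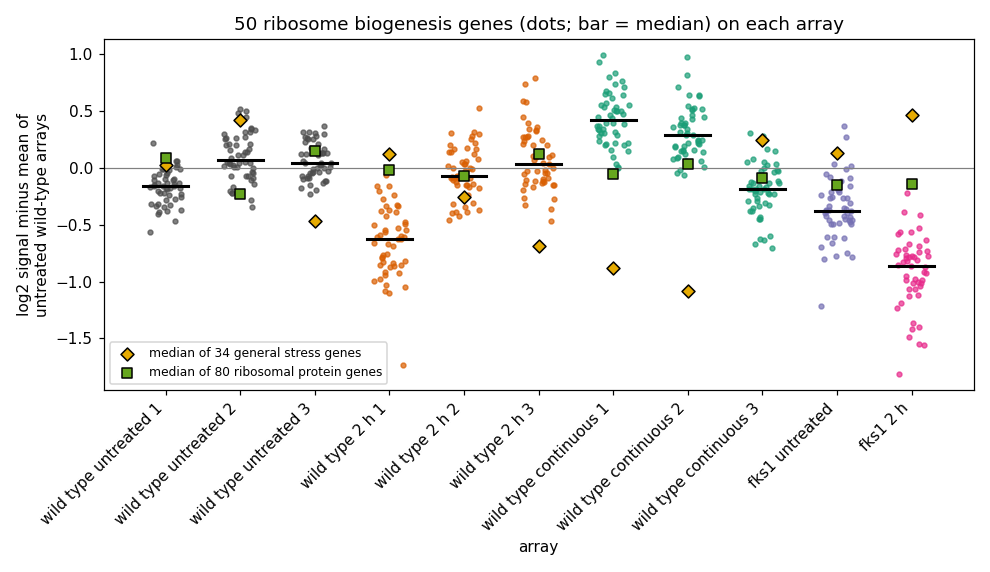
Log2 signal relative to the untreated wild-type mean (vertical axis) on each array (horizontal axis), with a dot per ribosome biogenesis gene, a bar at their median, a diamond at the median of the 34 stress genes and a square at that of the 80 ribosomal protein genes. The biogenesis genes reach from -0.86 to 0.42 in their median over the arrays, while the ribosomal protein genes stay between -0.23 and 0.15.

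After 2 h of glucosamine the ribosome biogenesis genes read slightly lower than in untreated cells, and none passed the test. The log2 difference was negative for 42 of 50, with a median of -0.22 and a range of -0.63 to 0.20, beside 53.9% negative and a median of -0.02 over all 8616 probe sets. With limma, 0 members were called at an adjusted p of 0.05 (0.0348% of all probe sets were called), and 2 had an unadjusted p under 0.05 (6.06% of all probe sets). In 5 genes the 3 treated arrays lay below all 3 untreated ones (6.35% of probe sets), and in 0 genes above them (4.64%). The members' smallest limma adjusted p was 0.641. Without 2 h array 1 the median was 0.02, with 21 genes negative, in the fit without pairs. Without 2 h array 3 the median was -0.34 and without untreated array 2 it was -0.14. The untreated and 2 h arrays of the same number deviated together, and the differences within the pairs had medians of -0.48, -0.14 and -0.01, with 49, 40 and 25 genes negative. Over all probe sets the medians within the pairs were -0.002, -0.041 and -0.033. Pair 1 was thus the lowest for the members and pair 2 was lower in 40 genes, while pair 3 showed no shift. In 21 genes all 3 pairs were negative (20.7% of probe sets) and in 0 all 3 were positive (14.2%). With the pairs in the limma fit 0 members were called (0.197%), 9 had an unadjusted p under 0.05 (12.8%), and the smallest adjusted p was 0.163.

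Cells grown continuously in glucosamine read slightly higher than untreated cells, again with no gene past the test. The difference was positive for 43 of 50 genes, with a median of 0.16 and a range of -0.16 to 0.76, beside 52.4% positive and a median of 0.02 over all probe sets. By limma 0 members were called (1.44% of probe sets), 0 had an unadjusted p under 0.05 (13.8%), and the smallest adjusted p was 0.391. The groups did not overlap in 2 genes, LTV1 and RPA43, both higher in glucosamine (10.6%), and in 0 genes lower (9.48%). Without continuous array 3 the median was 0.35 with all 50 genes positive, and without continuous array 1 it was 0.03 with 22 negative. Without untreated array 1 it was 0.08 with 18 negative, without untreated array 2 it was 0.25, and without continuous array 2 or with the arrays scaled to a common median it was 0.09.

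Between the treated groups the ribosome biogenesis genes were higher in continuous glucosamine than after 2 h, by a larger median than in either comparison with untreated cells, and again none passed the test. The continuous arrays were higher for 49 of 50 genes, with a median of 0.40 and a range of -0.06 to 0.83, beside 55.7% positive and a median of 0.05 over all probe sets. NOP58 was the exception, at -0.06 in its brightest probe set, while its other 3 probe sets were positive, and with the mean over the probe sets of each gene 0 of 50 were negative. By limma 0 members were called (0.058% of probe sets) and 5 had an unadjusted p under 0.05 (14%). These were RPA190, RPA135, UTP5, UTP22 and DRS1, and the smallest adjusted p was 0.250. In RPA190, UTP22, MPP10 and NOC3 all continuous readings were above all 2 h readings (11.5%), and in 0 genes below them (7.14%). The median was 0.20 when 2 h array 1 was left out. Leaving out continuous array 1 gave 0.26, and leaving out continuous array 3 gave 0.60. The 3 comparisons share arrays and are not independent of each other.

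**Figure D3:**
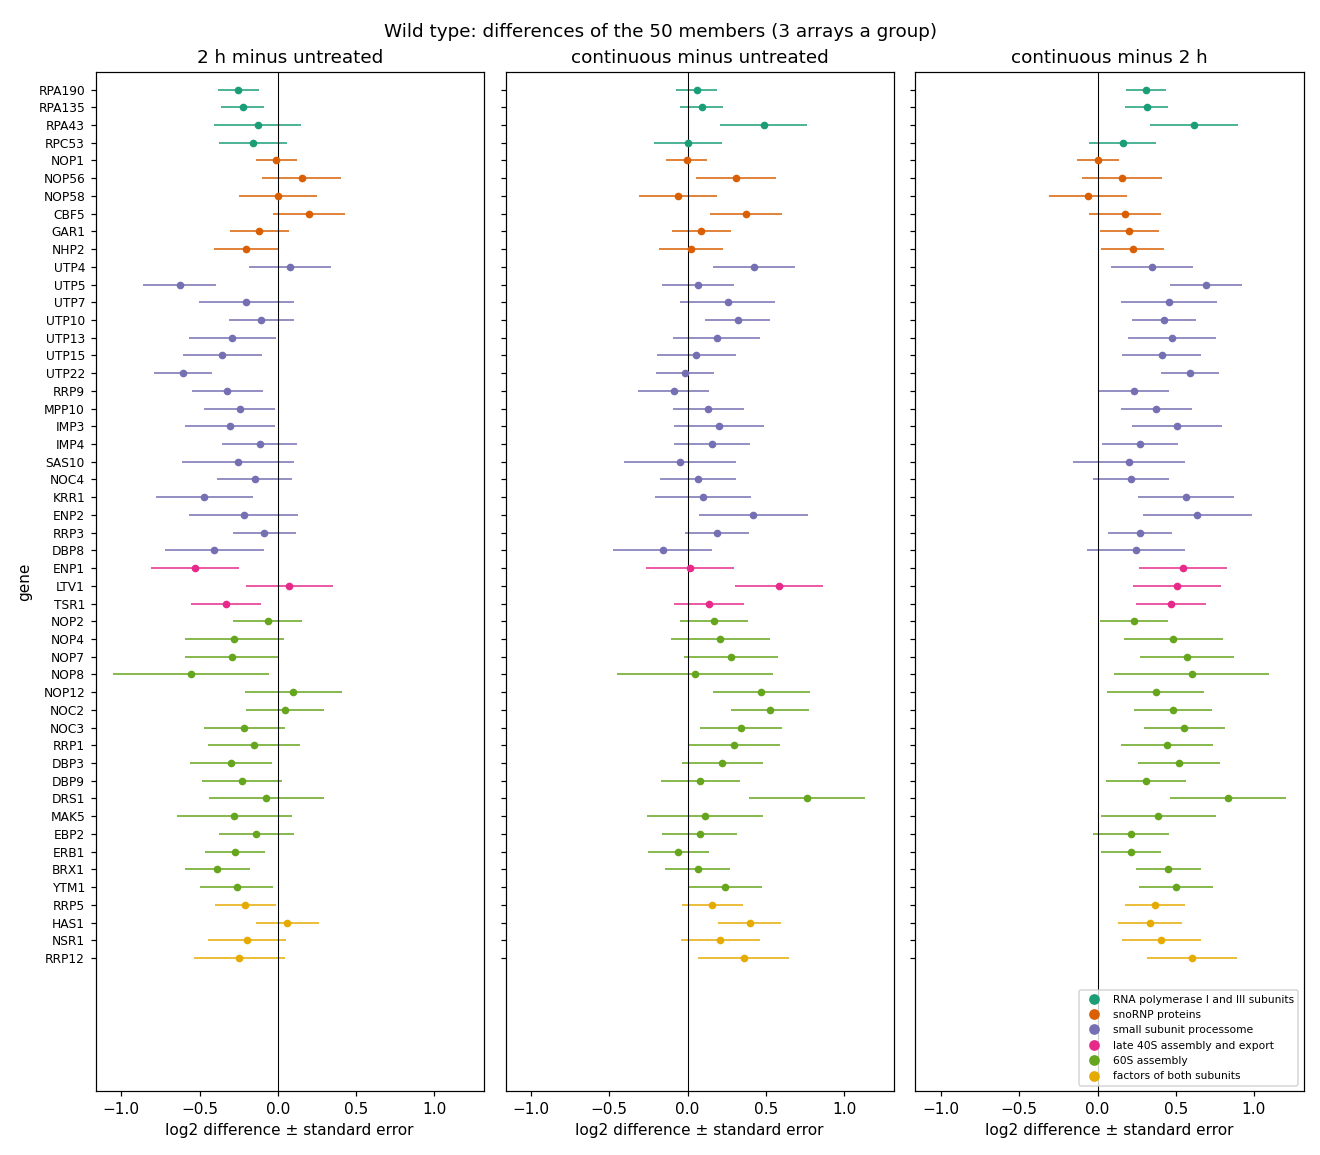
Log2 difference of each of the 50 genes with its standard error from limma (horizontal bars), in the 3 wild-type comparisons, coloured by role. At 2 h 42 points lie below 0, on the continuous arrays 43 lie above 0, and between the treated groups 49 lie above 0.

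Subunits of RNA polymerase I and III come first in the pathway. RPA190 and RPA135 are the subunits that form the active centre of RNA polymerase I. RPA190 read 2793.9, 2776.4 and 3186.6 on the untreated arrays 1, 2 and 3, 2093.1, 2627 and 2664.2 at 2 h, and 3374.5, 2870.2 and 2879.4 on the continuous arrays. All 3 readings at 2 h were below both other groups, which overlapped each other. The 2 h mean was 2461 ± 319.5 against 2919 ± 232 untreated (SD, n = 3; log2 -0.25, SE 0.13, limma adjusted p = 0.857), and against 3041 ± 289 continuous it differed by 0.31 (SE 0.13, limma adjusted p = 0.338). Only its brightest probe set and 1 other of the 7 were lower at 2 h, and the mean over the 7 gave 0.16 (SE 0.28, limma adjusted p = 0.959), so its direction depends on the probe set. RPA135 read 2490.7, 2591.4 and 2442.3 untreated, 1871.8, 2404.5 and 2192.4 at 2 h and 3120.9, 2623.9 and 2319.3 continuous. Its 2 h readings lay below the untreated ones, while array 3 of the continuous group fell inside the 2 h range. The continuous against 2 h difference was 0.31 (SE 0.14, limma adjusted p = 0.348).

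RPA43, the stalk subunit through which RNA polymerase I is recruited to its promoter, had the widest range of the 4. It read 441.1, 503.3 and 538.6 untreated, 276.8, 535.2 and 616.9 at 2 h and 824.2, 720.6 and 552 continuous. Every continuous reading was above every untreated one (699 ± 137 against 494 ± 49.4; log2 0.49, SE 0.28, limma adjusted p = 0.511), while the 2 h arrays reached from below the untreated range to above it. RPC53, a subunit of RNA polymerase III, read 257.8 to 452 over the 9 wild-type arrays, with its lowest reading on 2 h array 1 and overlapping groups. The group's medians were -0.19 at 2 h, with 4 of 4 negative, and 0.07 on the continuous arrays, with 4 of 4 positive.

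The 6 snoRNP proteins carry out the modification of ribosomal RNA. NOP1 is the methyltransferase of the box C/D class, NOP56 and NOP58 are its scaffold partners, CBF5 is the pseudouridine synthase of the H/ACA class, and GAR1 and NHP2 accompany it. At 2 h 3 of the 6 were positive and 3 negative (range -0.20 to 0.20), and on the continuous arrays 4 were positive, with a median of 0.05. NOP56 varied most, with 989.5, 1265.3 and 1067.6 untreated, 881, 1092.5 and 1906.3 at 2 h and 1557.1, 1399.6 and 1166.8 continuous. Its reading on 2 h array 3 was the highest of all 11 arrays and the other 2 h readings lay below or within the untreated range (log2 0.15, SE 0.25, limma adjusted p = 0.958). CBF5 read 2496, 2451.8 and 4353.3 at 2 h beside 2590.9, 2533.3 and 2690.4 untreated, with array 3 alone above the untreated readings. GAR1 (1970.4, 2073.1 and 3250.6) and NOP58 (6880.8, 6072.7 and 11910.8) were also highest on 2 h array 3. On that array the 6 genes had a median of 0.46, while the medians of the other roles there lay between -0.10 and 0.13. The rise was not shared by NOP1 (-0.03) and NHP2 (0.10), and in other roles LTV1 (0.58) and MAK5 (0.45) were high there. The 8 snoRNP proteins followed outside the 50 genes had a median of 0.04 on it, with 4 above 0. That array also had the highest signal of the 25S ribosomal RNA probe set, 11615.4 beside 20.4 to 3947.1 on the other arrays. Its 3′ to 5′ ratios of SPT15 (3.86) and actin (1.54) were the highest of the 11 as well, and the part of these in the snoRNP readings was not tested. The brightest probe set of NOP58, of a kind that can bind related transcripts, gave log2 -0.06 both for continuous against untreated and for continuous against 2 h. Its other 3 gave 0.21 to 0.82 in the former (smallest limma adjusted p = 0.170) and 0.08 to 0.34 in the latter, so the direction for NOP58 depends on the probe set.

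The small subunit processome binds the emerging precursor and prepares the cuts that release the 18S ribosomal RNA. Its 17 members included UTP5 and UTP22, the single genes with the lowest differences at 2 h. There 16 of 17 were negative with a median of -0.25, and 13 of 17 were positive on the continuous arrays with a median of 0.13. UTP22, a subunit of the UTP-C complex, read 1042.4, 1069.5 and 1268.5 untreated, 548.8, 818.5 and 895.8 at 2 h and 1123, 1189.3 and 1024.8 continuous. All of its 2 h readings were below every reading of both other groups, and the untreated and continuous readings overlapped. Its mean was 754 ± 182 at 2 h against 1127 ± 123 untreated, 1.52-fold lower (log2 -0.60, SE 0.19, limma adjusted p = 0.641, 95% interval -1.02 to -0.19), and the continuous against 2 h difference was 0.59 (SE 0.19, limma adjusted p = 0.25). Of its 6 probe sets the brightest gave the lowest value at 2 h, 2 more were negative at -0.47 and -0.44, 3 lay between 0.00 and 0.25, and the mean over the 6 was -0.20 at 2 h and 0.06 for continuous against 2 h.

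UTP5, which belongs to the UTP-A complex that binds first and is linked to ribosomal DNA transcription, read 633.6, 703.7 and 755.7 untreated, 336, 538.3 and 504.9 at 2 h and 812, 890.8 and 534.5 continuous. Every 2 h reading was below every untreated one, while continuous array 3 fell within the 2 h range. The 2 h mean was 459.7 ± 108 against 698 ± 61.3 (log2 -0.63, SE 0.23, limma adjusted p = 0.727), the lowest difference of all 50, and the continuous against 2 h difference was 0.69 (SE 0.23, limma adjusted p = 0.264). Its UTP-A partners UTP4, UTP10 and UTP15 had 2 h differences of 0.08, -0.10 and -0.36, none with groups apart. ENP2, a WD-repeat protein of the processome, had the widest range of the 17. It read 262.2, 365.7 and 403.5 untreated, 179.6, 320 and 427 at 2 h and 588.5, 527.2 and 297.6 continuous. Both ends of its wild-type range were on treated arrays, and the 3 wild-type groups overlapped (log2 0.42, SE 0.35, limma adjusted p = 0.681 for continuous against untreated).

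The remaining processome members are grouped by their known work. The MPP10 complex, which joins the U3 snoRNA to the precursor, is present with MPP10 (-0.24 at 2 h, 0.13 continuous), IMP3 (-0.31 and 0.20) and IMP4 (-0.12 and 0.15), and SAS10, which binds it, gave -0.25 and -0.05. RRP9, a protein of the U3 particle itself, read 322.9, 462.5 and 405.8 at 2 h beside 488.1, 510.6 and 475.9 untreated. Its 2 h readings were all below the untreated ones (log2 -0.32, SE 0.23, limma adjusted p = 0.913), but the continuous arrays at 504.8, 600.1 and 324.7 lay on both sides. The helicases RRP3 and DBP8 measured -0.09 and -0.41 at 2 h, and KRR1, an RNA-binding protein, -0.47. UTP7 gave -0.20, UTP13 -0.29 and NOC4 -0.15 at 2 h. None of these 11 passed in any comparison, and MPP10 was the 1 of them whose continuous readings (267.4, 215.5 and 202.6) lay above all those at 2 h (137.3, 194.4 and 200.8).

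Late 40S assembly and export was covered by ENP1, LTV1 and TSR1, which travel with the small subunit precursor on its way to the cytoplasm. ENP1 read 598.5, 595.3 and 794 untreated, 305.7, 499.1 and 614.1 at 2 h and 833.3, 724.3 and 481.7 continuous. At 2 h array 3 was inside the untreated range and the other arrays were below it (log2 -0.53, SE 0.28, limma adjusted p = 0.857). LTV1 read 170.1, 175.2 and 225.9 untreated, 133.8, 208.7 and 281.6 at 2 h and 361.5, 272.2 and 230.1 continuous. All continuous readings were above all untreated ones, by the narrow gap between continuous array 3 and untreated array 3 (288 ± 67.1 against 190.4 ± 30.8; log2 0.58, SE 0.28, limma adjusted p = 0.402). TSR1 differed by -0.33 at 2 h and 0.14 on the continuous arrays, with overlapping groups in both.

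The 16 factors of 60S assembly held the highest single value on the continuous arrays, where 15 of 16 were positive with a median of 0.21, beside 14 of 16 negative with a median of -0.25 at 2 h. NOC2, which escorts early pre-60S particles through the nucleus, had the smallest p. It read 138.5, 181.5 and 138.5 untreated, 125.5, 188.6 and 161.8 at 2 h and 248.6, 266.5 and 157.4 continuous. Continuous arrays 1 and 2 stood above all others and array 3 inside the untreated range (224 ± 58.5 against 153 ± 24.8; log2 0.53, SE 0.25, limma adjusted p = 0.391). DRS1, a helicase of 27S precursor processing, read 194.2, 345.7 and 215 untreated, 128.4, 302.2 and 319.8 at 2 h and 485.6, 479.6 and 301.7 continuous. Untreated array 2 was above continuous array 3, so the groups overlapped, although the difference was the highest of the 50 (log2 0.76, SE 0.37, limma adjusted p = 0.408). NOC3, the later partner of NOC2, read 136.5, 199.3 and 186.9 at 2 h and 281.8, 259 and 220.5 continuous, with no overlap between them and a difference of 0.55 (SE 0.26, limma adjusted p = 0.377).

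NOP8, needed for 60S assembly, had the widest range among the large-subunit factors. It read 178.1, 262 and 318.6 untreated, 74, 217.7 and 291.1 at 2 h and 324.4, 334.6 and 151 continuous. A single low 2 h array and a single low continuous array lay beside arrays inside or just above the untreated range (log2 -0.55, SE 0.50, limma adjusted p = 0.938 at 2 h). NOP7, ERB1 and YTM1 form 1 complex of 27S processing, and their values on the continuous arrays were 0.28, -0.06 and 0.24, none with groups apart. The helicases DBP3, DBP9 and MAK5 measured 0.22, 0.08 and 0.11 there. NOP2, a methyltransferase of 25S ribosomal RNA, gave 0.17, NOP4 and NOP12, RNA-binding proteins, 0.21 and 0.47, and RRP1, EBP2 and BRX1 0.29, 0.08 and 0.07. None of these 13 had continuous readings wholly apart from the untreated ones.

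The 4 factors of both subunits are RRP5, which binds either side of the site where the precursor is split, the helicase HAS1, the nucleolin-like NSR1 and RRP12, which takes part in the export of both particles. HAS1 read 690.4, 843 and 761.7 untreated, 682.1, 842.5 and 875 at 2 h and 1361.5, 945.5 and 783.6 continuous. Continuous arrays 1 and 2 were the highest, and array 3 lay within the untreated range (log2 0.40, SE 0.20, limma adjusted p = 0.435). RRP12 read 1154.2, 1092.8 and 1194.5 untreated, 632.7, 1021.5 and 1397.6 at 2 h and 1953.8, 1556.9 and 1043 continuous. The 2 h arrays reached from far below the untreated readings to above them, and 2 continuous arrays were above all untreated ones while the third was below them (log2 0.36, SE 0.29, limma adjusted p = 0.668). RRP5 and NSR1 differed by 0.16 and 0.21 on the continuous arrays and by -0.21 and -0.20 at 2 h.

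**Figure D4:**
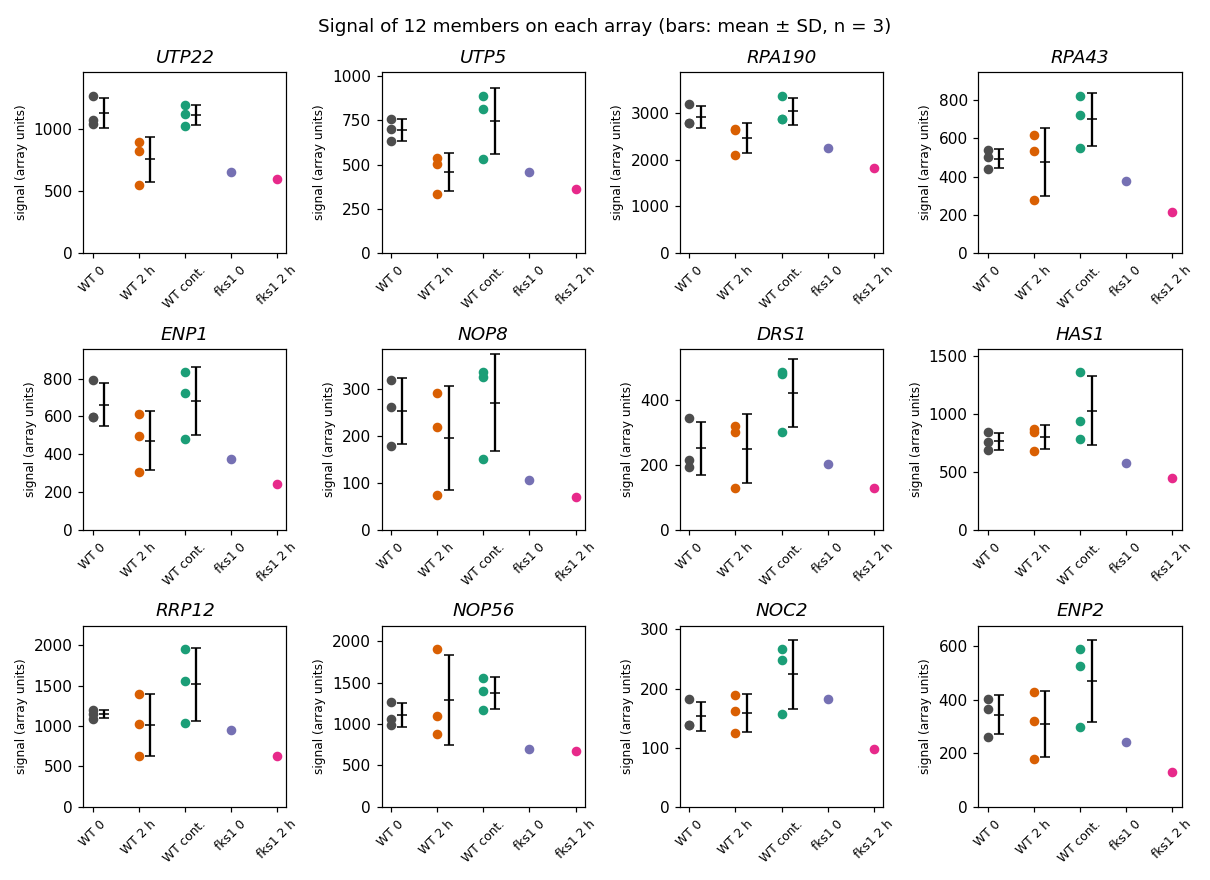
Signal (vertical axis, from 0, array units) of 12 of the described genes on each of the 11 arrays, 1 panel per gene, with wild type untreated (WT 0), at 2 h and continuous (cont.) and both fks1 arrays as dots and the wild-type mean ± SD (n = 3) beside them. In all 12 panels the treated fks1 array is below the 3 untreated wild-type arrays.

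The rest of the pathway was followed through 162 further genes on the arrays, in 6 lists. None was called in any of the 3 comparisons. At 2 h 138 of 162 were negative (median -0.16), on the continuous arrays 129 were positive (median 0.15), and between the treated groups 151 were positive (median 0.35). Other polymerase subunits and factors numbered 23, and RRN10, of the RNA polymerase I upstream factor, measured 94.3 ± 13.4 at 2 h against 146 ± 13.1 untreated (SD, n = 3; log2 -0.64, SE 0.19, limma adjusted p = 0.641). RSA1, a snoRNP assembly factor, measured 97.4 ± 13.1 on the continuous arrays against 52.9 ± 4.42 untreated (log2 0.88, SE 0.21, limma adjusted p = 0.0750), the smallest adjusted p of the pathway. Among 51 other small subunit factors 44 were negative at 2 h and 43 positive on the continuous arrays, and among 54 other large subunit factors 49 and 47. FAF1, of early 40S processing, measured 129 ± 46.5 continuous against 54.5 ± 24.3 at 2 h (log2 1.29, SE 0.43, limma adjusted p = 0.269), and RRS1, of 60S assembly, 448 ± 114 against 279 ± 51.1 (log2 0.67, SE 0.21, limma adjusted p = 0.255). The 13 genes of the RNA exosome, which trims precursor ends, had 12 negative at 2 h. Of 13 regulators, the repressor STB3 measured 0.48 at 2 h (SE 0.23, limma adjusted p = 0.840) and the kinase SCH9 0.37 on the continuous arrays (SE 0.19, limma adjusted p = 0.452).

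In fks1 cells most of the ribosome biogenesis genes read lower than in wild type of the same treatment. These values rest on 1 array per treatment, so there is no replicate check and no test. Untreated, 46 of 50 were below the wild-type mean, beside 3424 of all 8616 probe sets. Their median was -0.38 (-0.59 with the arrays scaled to a common median), beside 0.12 over all probe sets. In 36 genes fks1 lay below all 3 wild-type arrays (19.5% of probe sets) and in 2 above them (38.4%). A reading at least 1.5-fold below each wild-type array was found in 4, GAR1, UTP22, ENP1 and NOP8 (2.02%), and 1.5-fold above in 0 (8.34%). After glucosamine all 50 were below the wild-type 2 h mean, beside 3663 of all 8616 probe sets. Their median was -0.68 beside 0.08, and 40 were below all 3 arrays (21.1%). There the 4 genes at least 1.5-fold below each array were SAS10, NOP2, EBP2 and HAS1 (2.26%), with 0 above (7.09%). These counts moved with the wild-type arrays: without untreated array 1 the first was 11, and without 2 h array 1 the second was 35. Of the 162 further pathway genes, 118 were below the wild-type mean untreated (median -0.18), and 69 were below all 3 arrays. After glucosamine 148 were below the mean (median -0.56) and 107 below all 3 arrays. The 23 other polymerase subunits and factors had medians of 0.00 untreated and -0.24 treated.

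NOP8 read 105.9 in untreated fks1 against 253 ± 70.7 in wild type (SD, n = 3), the largest deficit at log2 -1.22. ENP1 read 376.5 against 663 ± 114 (-0.80), and UTP22 651 against 1127 ± 123 (-0.79). All 3 were below every untreated wild-type reading, and all 3 lay within their wild-type 2 h ranges. At the other end UTP4, of the UTP-A complex, read 140.9 and NOC2 183, the 2 genes above all their untreated wild-type readings (log2 0.37 and 0.27). NOP4 was the next highest at 309.7 (0.04), inside the wild-type range.

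Between the fks1 arrays the median difference, treated minus untreated, was -0.55 for the 50 genes beside -0.05 over all probe sets. The treated array was lower for all 50 genes and for 4800 of all 8616 probe sets. It was at least 1.5-fold lower for 23 (9.23% of probe sets) and 1.5-fold higher for 0 (4.85%). The 60S factors had a median of -0.70 with 12 of 16 at least 1.5-fold lower, and the snoRNP proteins a median of -0.24. NOP4 went from 309.7 to 144.2 (-1.10), SAS10 from 669.6 to 312.2 (-1.10) and NOP7 from 96.6 to 47.1 (-1.04). UTP22 and UTP5, the lowest genes of the wild-type 2 h comparison, differed by -0.13 and -0.34, and with BRX1 they were the 3 genes whose difference was not more negative than in wild type. For the other 47 it was more negative, a difference between strains that was not tested, and the same was not counted over all probe sets. Within the same-numbered wild-type pairs the median differences were -0.48, -0.14 and -0.01, beside -0.55 between the fks1 arrays. Relative to the untreated wild-type mean, the wild-type 2 h arrays lay at -0.62, -0.07 and 0.04. On that scale the fks1 arrays lay at -0.38 untreated and -0.86 treated. The stress genes, at 0.13 and 0.46 on the fks1 arrays, were the higher on the treated one.

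**Figure D5:**
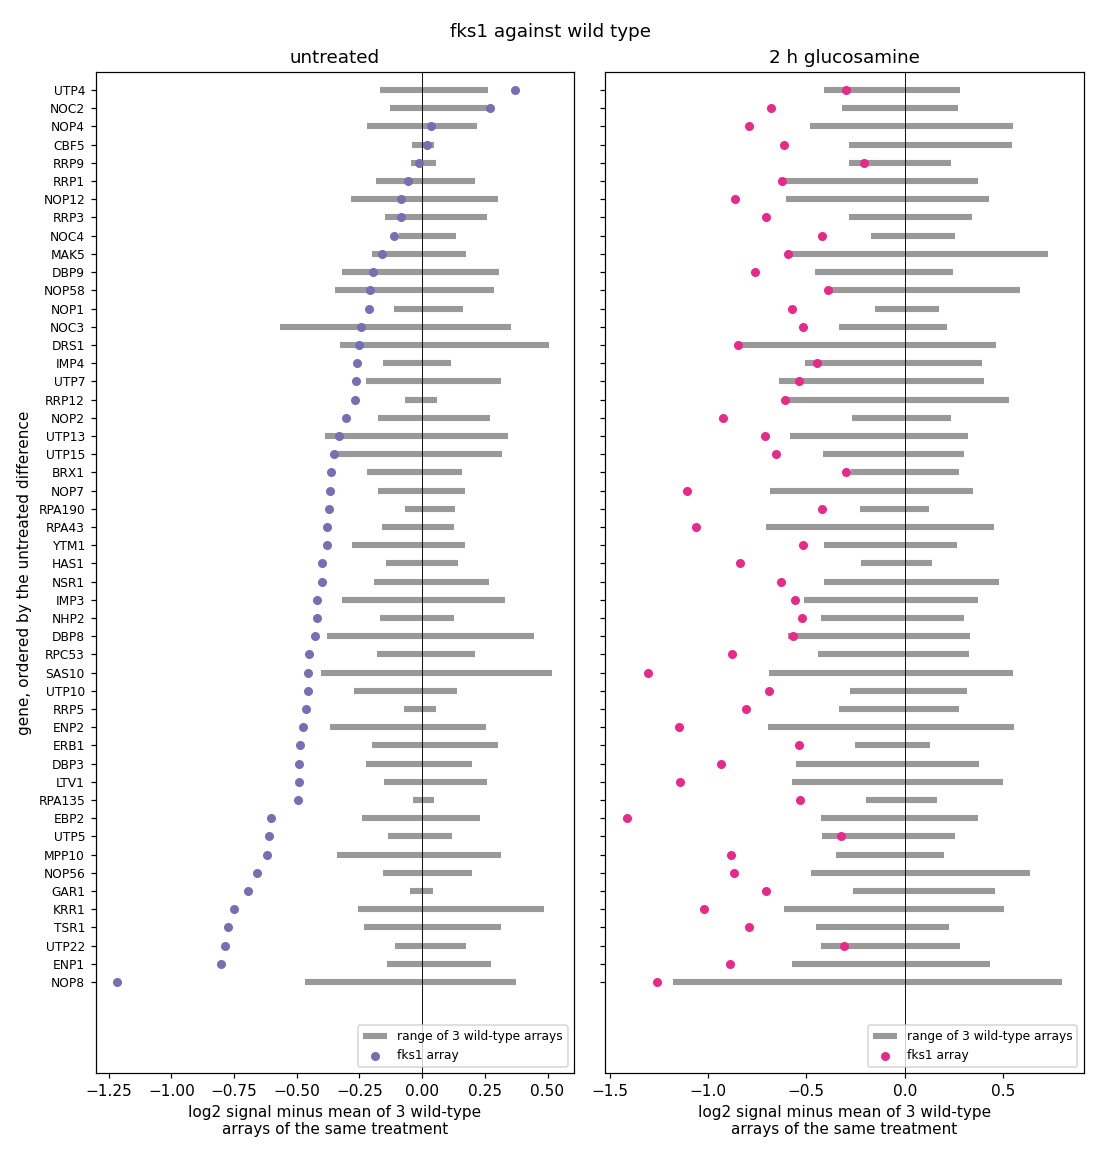
Signal of the 50 genes in fks1 relative to wild type of the same treatment, on a log2 scale, with the range of the 3 wild-type arrays around their mean. Untreated, 36 points lie below the wild-type range, with NOP8 lowest and UTP4 and NOC2 above it; after glucosamine 40 lie below it.

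In the gene order of RefSeq assembly R64, SAS10 is next to RPC53 and RPA43 next to RPA190. Counting the 162 further pathway genes as well, 14 of the 50 members (28%) lie beside another gene of the pathway, compared with 383 of 5808 other protein-coding genes (6.59%). These include NOC2 beside RET1, a subunit of RNA polymerase III, GAR1 beside RPF1 of 60S assembly, and LTV1 beside RPC25 of RNA polymerase III. This is a description of position, and no difference in signal was tested against it.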

How the data were processed

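Total RNA of 11 yeast samples was labelled and hybridised to YG-S98 arrays, and the deposited values are 1 signal per probe set and array, which, per the labels' protocols, the authors normalised in GeneChip Analysis Suite (version and settings not given in the sources used here). A common mean on every array removes differences in total RNA per cell. Signals under a floor of 7.7 (10th percentile) were set to it and transformed to log2. Of 9275 probe sets that are not controls, 8616 were tested because they were above the floor on at least 3 wild-type arrays. Names came from the platform's table, with symbols updated through RefSeq R64: 6504 probe sets had 1 gene, 328 several and 2443 none.

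A single two-sided model of the 9 wild-type arrays was fitted with limma 3.58.1 under R 4.3.3, with a variance trend and Benjamini-Hochberg adjustment over all 8616 probe sets at 0.05; the steps were tested on simulated data. The members, gene lists and tests were chosen with earlier results of these data known. Values by array are given for the genes with the 4 smallest p in each comparison, the widest range in each role, and the 3 lowest and 3 highest fks1 values; others were picked after their values were seen. Same-numbered untreated and 2 h arrays deviated together (r = 0.356, 0.570 and 0.517), so those numbers were taken to pair the samples. Continuous arrays did not deviate with the same-numbered arrays of either group (r = -0.236 to -0.006). With differently numbered arrays of these groups their r ran from -0.291 to 0.315, the highest for continuous array 3 with 2 h array 1. Alternatives changed the floor, scaling, filter, probe sets, variance trend, arrays and pairing. The number of arrays limits the precision. Promoter and protein sequences were not used here.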

Additional observations from a re-analysis of the deposited data

How the results depend on the processing

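No member was called in any wild-type comparison under any alternative of floor, scaling, low-signal filter, probe sets, variance trend, arrays in the fit or pairing, nor with any 1 array left out. The medians kept their sign except for 2 h against untreated without 2 h array 1. With 1 array left out, 2 h against untreated ran from -0.34 to 0.02 and continuous against untreated from 0.03 to 0.35. Continuous against 2 h ran from 0.20 to 0.60. Fitted on the 6 arrays compared, with the replicate block, the medians were -0.22, 0.16 and 0.40 and the member calls 0, 0 and 0; calls over all probe sets were 17, 0 and 0, beside 0, 120 and 5 on the same 6 arrays without the block and 3, 124 and 5 in the fit of 9. Of 216 alternative values of members named with a test, 215 kept their sign and the smallest adjusted p was 0.146 by limma; RPA190 at 2 h turned to 0.16 with the mean over its 7 probe sets. The 4 untreated fks1 genes at least 1.5-fold below each wild-type array became 10 with median scaling, 7 with quantile normalization, 17 at 1.2-fold and 0 at 2-fold, and 4 to 11 with 1 array left out. The 4 treated fks1 genes became 10, 9, 26 and 0 in the same order, and 4 to 35 with 1 array left out. The causes were not tested. Counts of fks1 genes below all wild-type arrays, tried in alternatives chosen after seeing the data, were 36 to 45 untreated and 40 to 50 treated, and the median of treated minus untreated fks1 was -0.55 to -0.41. Over all probe sets, calls for continuous against untreated ran from 2 to 182 with 1 array left out. With 3 arrays per group and 1 per fks1 treatment, differences of the size of the spread between arrays could not be resolved.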
